A study of Arabidopsis thaliana with 18 samples.

Results

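The 48 genes described here encode DNA repair and DNA damage signalling factors of Arabidopsis thaliana, and their transcripts were followed in seeds. They were chosen by locus identifier and known role, and all 48 were found among the 33602 genes of each of 3 comparisons. By role they comprised 7 signalling genes, 17 recombination genes, 6 end joining genes, 3 poly(ADP-ribose) polymerase (PARP) genes, 6 base excision and single-strand break genes, 5 mismatch repair genes, 2 translesion polymerases and 2 genes that act on UV damage. The seeds were of 2 genotypes, both labelled as complemented, in which the reintroduced gene was intact (+WT) or lacked its DS segment (ΔDS). The gene itself, from knowledge of the study, is FLOE1, which encodes a protein that condenses in embryos on water uptake. RNA was sequenced from dry seeds, from imbibed seeds kept for 5 days at 4 °C in darkness on MS medium and then for 4 hours in light at 22 °C, and from seeds given the same steps on medium with 220 mM NaCl (salt). Each of the 6 groups had 3 replicates, which makes 18 samples. The labels name neither the promoter of the reintroduced gene, nor the recipient line, nor whether a genotype is 1 transgenic line, and they do not say whether replicates were separate harvests, so the p-values measure only the spread between these samples.

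A cell that senses broken or unreplicated DNA activates the kinases ATM and ATR. In plants these kinases phosphorylate SOG1, a NAC transcription factor that switches on repair genes and cell cycle inhibitors. Breaks are then mended by homologous recombination, which copies an intact sister sequence, or by end joining, which ligates the ends, while base excision and mismatch repair correct damaged or mispaired bases. DNA damage builds up while seeds are dry, and repair early in imbibition, before the first cell divisions, is a known part of germination.

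All values below rest on the authors' deposited tables, 1 for each seed state, which compare ΔDS with +WT and hold a mean over libraries, a log2 fold change and its standard error (SE). They give no value per library, so no spread or overlap of single samples can be shown, and the group means printed are those implied by the deposited mean and fold change. A positive log2 value is read as higher in ΔDS, from the order of the names in the titles, since the headers do not state the direction. The summed mean normalised counts lay between 24526188 and 26367661 per library across the 3 tables. Sequenced totals of the libraries were not used here, and the library totals named below are the summed implied means of each genotype. Transcripts of FLOE1 were lower in ΔDS by 46.1-fold (dry), 47.8-fold (imbibed) and 31.9-fold (salt) in the authors' deposited tables, so effects of the deletion, of the amount of FLOE1 transcript and of the line cannot be told apart. In these bulk samples fewer cells of a type and less RNA per cell cannot be told apart either. Seed storage and late embryogenesis markers fell in ΔDS, 4 of 7 of them in dry seeds and 7 of 7 in each other state, and their summed implied level went from 2282442 to 964699.9 normalised counts in imbibed seeds. Of 4 endosperm markers 3 were tested in each state, of which 2 were higher and 1 lower in dry seeds, 1 higher and 2 lower in imbibed seeds and 1 higher and 1 lower in salt. Their summed implied level went from 668305 to 302913 normalised counts in imbibed seeds, nearly all of it from EPR1, which was lower in each state, while AGL62 was higher in each, from 7.46 to 26.1, 0.373 to 24.3 and 0.199 to 20.6 implied normalised counts in dry, imbibed and salt seeds. Of 7 embryo markers tested in imbibed seeds 3 were higher, and 0 of 4 in dry seeds and 0 of 6 in salt (1 and 0 at an unadjusted p under 0.05, DESeq2 Wald test). Of the 6 seed coat markers 4 or 5 were listed at 0 in each table, and the one tested, TTG2, was higher in imbibed seeds, from 20.4 to 85.1 implied normalised counts, with 2.06 ± 0.43 (adjusted p = 2.58e-05) there and 0.89 ± 0.74 (adjusted p = 0.516) in salt in the authors' deposited tables. The part of these shifts in the results below was not tested.

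A subset of repair genes, most of them of recombination, damage signalling and the PARP family, was higher in ΔDS than in +WT seeds after water uptake, and in dry seeds no member passed. A member was counted as changed when its adjusted p in the authors' deposited table was under 0.05. In dry seeds 0 of the 41 members tested passed in either direction, and at an unadjusted p under 0.05 (DESeq2 Wald test) 5 were higher and 2 lower. Of all genes tested in dry seeds 2.96% were higher and 3.10% lower. In imbibed seeds 14 of 47 members were higher (29.8%) and 6 were lower (12.8%), beside 21.3% higher and 19.5% lower of all genes tested. In salt 17 of 46 were higher (37.0%) and 2 lower (4.35%), beside 6.98% and 6.99% of all genes. By state, in the order dry, imbibed and salt, the median log2 fold change over members tested was 0.06, 0.24 and 0.19, while over all genes tested it was 0.00, 0.02 and 0.00. Scaling the tables to equal library totals, which shifts every gene upward in ΔDS, gave 3 members higher in dry seeds, 23 higher and 2 lower in imbibed seeds, and 23 higher and 0 lower in salt. In all, 24 members passed in at least 1 state, in either direction, and the other 24 in none. The share of all genes that passed in at least 1 state was not counted, so no excess is read from this.

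**Figure D1:**
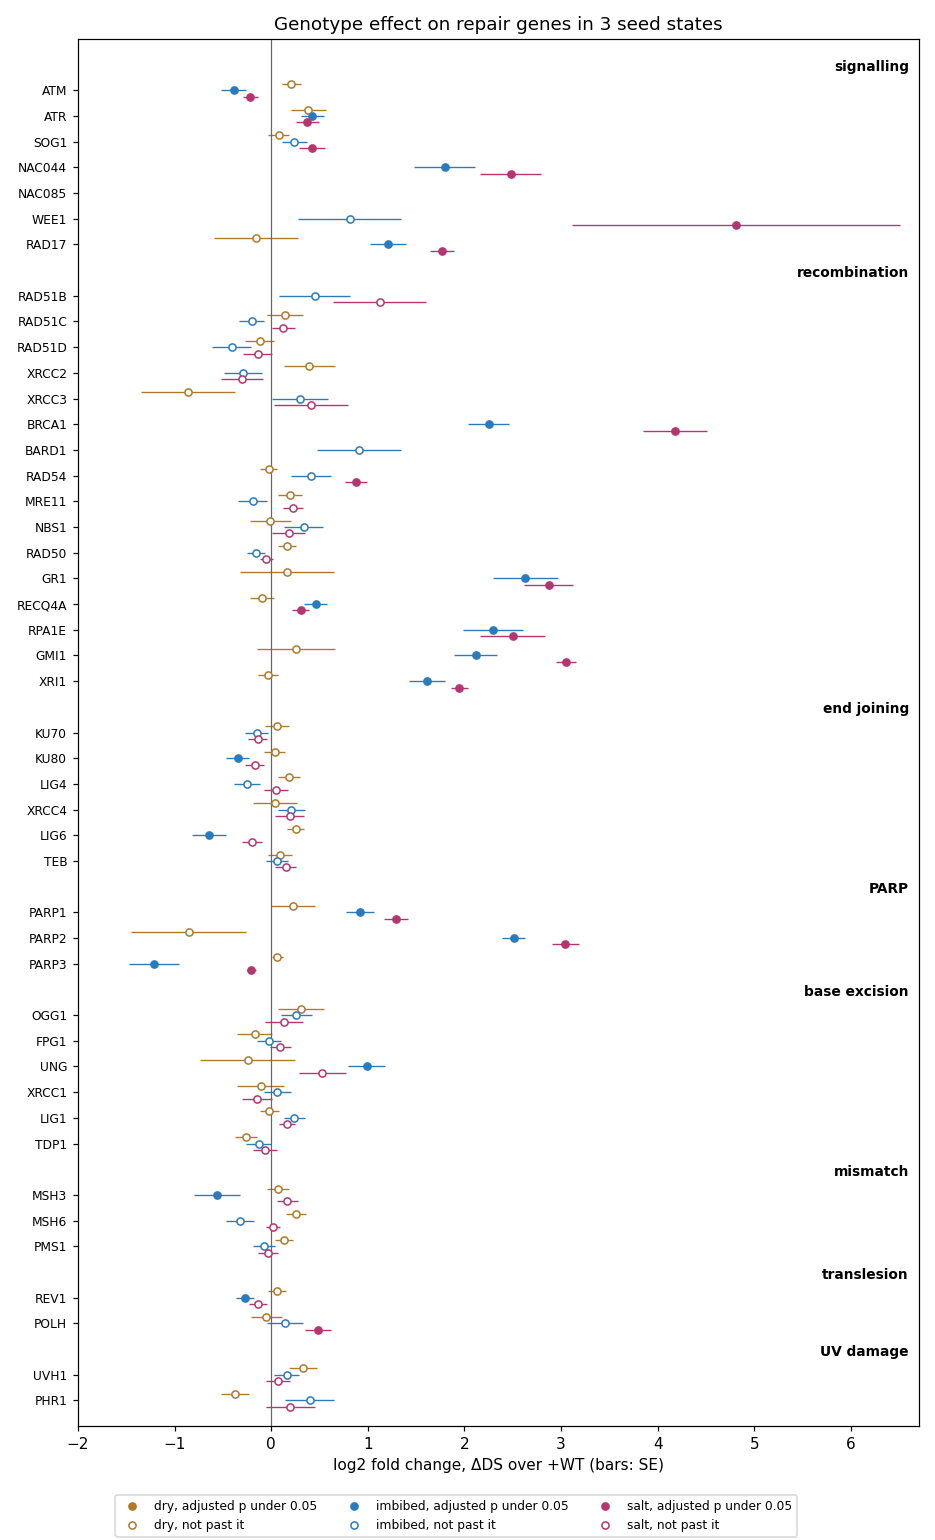
Genotype effect on repair genes in the 3 seed states. Each point is the deposited log2 fold change of ΔDS over +WT with its SE as a bar (horizontal axis), members are grouped by role (vertical axis), filled points have an adjusted p under 0.05, and members without an adjusted p in a state have no point there. Imbibed and salt points of the members raised in both states lie to the right of 0 and are filled, and no dry point is filled.

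The genes higher in both imbibed and salt seeds were 13 of the 46 tested in both (28.3%), where 5.18% of all genes were. They included ATR, NAC044 and RAD17 among the signalling genes, BRCA1, GR1, RECQ4A, RPA1E, GMI1 and XRI1 among the recombination genes, and PARP1 and PARP2 among the PARP genes. No end joining, base excision, translesion or UV damage gene was in this set. The 2 members lower in both were ATM and PARP3 (4.35%), beside 6.00% of all genes. In imbibed seeds alone UNG passed as higher and KU80, LIG6, MSH3 and REV1 as lower, and in salt alone SOG1, WEE1, RAD54 and POLH passed as higher. A pass in 1 state and not in another is not a difference between states, which was tested on its own and is given further on.

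Promoters of 2 of the members with the largest salt effects relative to their errors are shown here, because the transcripts moved together and because SOG1 is known to bind a palindrome of CTT, any 7 bases, then AAG. They cover the 250 bases before the RefSeq gene start in TAIR10.1, read 5′ to 3′ on the strand of the gene. Capitals mark the outer bases of the palindrome. PARP2 lies on the plus strand (chr4:1049516-1049765) and XRI1, whose window holds no match, on the plus strand (chr5:19758631-19758880). The windows of GMI1 and RAD17, which rank with these 2, run through exons of a neighbouring gene for 185 and 187 bases, hold no match either and are not shown.
PARP2: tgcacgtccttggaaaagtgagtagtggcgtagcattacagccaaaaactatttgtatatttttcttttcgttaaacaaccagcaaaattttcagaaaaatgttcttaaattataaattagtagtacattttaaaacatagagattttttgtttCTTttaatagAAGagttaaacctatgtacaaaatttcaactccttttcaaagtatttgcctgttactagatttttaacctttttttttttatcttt
XRI1: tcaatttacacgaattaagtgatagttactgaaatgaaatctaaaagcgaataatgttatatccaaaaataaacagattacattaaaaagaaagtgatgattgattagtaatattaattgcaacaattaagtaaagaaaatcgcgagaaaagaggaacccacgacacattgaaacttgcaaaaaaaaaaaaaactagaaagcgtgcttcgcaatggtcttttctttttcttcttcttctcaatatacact

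Among the signalling genes the central transcription factor had a small effect and a close relative of it a larger one. SOG1 (AT1G25580) stood at 381 implied normalised counts in imbibed +WT seeds against 449 in ΔDS, and in salt at 282 against 378. In the authors' deposited tables this was 0.24 ± 0.13 (adjusted p = 0.123) in imbibed seeds and 0.42 ± 0.13 (adjusted p = 0.0166) in salt, so it passed in salt. NAC044 (AT3G01600), a SOG1-like NAC factor that takes part in the G2 arrest after damage, stood at 29.5 and 103 in imbibed seeds and at 22.2 and 124 in salt. The authors' deposited tables gave it 1.80 ± 0.32 (adjusted p = 5.53e-07) in imbibed seeds and 2.48 ± 0.32 (adjusted p = 5.29e-13) in salt. In dry seeds NAC044 had a mean of 2.15 normalised counts and no adjusted p. Its close relative NAC085 (AT5G14490) was listed at 0 in dry seeds and stayed under 1 mean normalised count in the other tables.

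The kinases at the top of the pathway went in opposite directions in the tables as deposited, with small effects. ATR (AT5G40820), which responds to single-stranded DNA at stalled forks, was higher, with 0.43 ± 0.12 (adjusted p = 0.00219) in imbibed seeds and 0.38 ± 0.11 (adjusted p = 0.0111) in salt in the authors' deposited tables. Its dry estimate was of similar size but did not pass, at 0.39 ± 0.18 (adjusted p = 0.234) in the authors' deposited table. The effect on ATR moved by only 0.04 ± 0.22 from dry to imbibed seeds and -0.01 ± 0.21 from dry to salt, and neither passed the z test described further on. ATM (AT3G48190), which responds to double-strand breaks, was lower, with -0.39 ± 0.13 (adjusted p = 0.00985) in imbibed seeds and -0.22 ± 0.076 (adjusted p = 0.0355) in salt in the authors' deposited tables. Scaled to library totals ATM did not pass in either state, at -0.20 and -0.06. With a trend of fold change on exon length removed, ATM did not pass either, at -0.25 and -0.18. At a fold of at least 1.5 neither ATM nor ATR passed. RAD17 (AT5G66130), which loads the checkpoint clamp onto damaged DNA, rose from 209 to 483 implied normalised counts in imbibed seeds and from 219 to 746 in salt. For it the authors' deposited tables gave 1.21 ± 0.19 (adjusted p = 1.72e-08) in imbibed seeds and 1.77 ± 0.13 (adjusted p = 9.27e-42) in salt. WEE1 (AT1G02970), a checkpoint kinase that restrains the cell cycle when replication stalls, passed in salt (adjusted p = 0.0358 in the authors' deposited table) on a mean of only 2.81 normalised counts, so no fold is given. It had a mean of 14.2 in imbibed seeds and was listed at 0 in dry seeds.

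Homologous recombination held 7 of the 13 genes raised in both states, and they fall at different steps of the reaction. GR1 (AT3G52115), also called COM1, helps trim broken ends into single strands. Its implied means were 40.6 in +WT and 252 in ΔDS imbibed seeds and 30.0 and 219.9 in salt, and the authors' deposited tables gave 2.63 ± 0.33 (adjusted p = 5.08e-13) in imbibed seeds and 2.87 ± 0.25 (adjusted p = 3.90e-27) in salt. RPA1E (AT4G19130) is a large subunit of the protein that coats single-stranded DNA. It stood at 21.6 in +WT and 106 in ΔDS imbibed seeds and 19.9 and 113 in salt, with 2.29 ± 0.31 (adjusted p = 1.92e-11) in imbibed seeds and 2.50 ± 0.33 (adjusted p = 6.66e-12) in salt in the authors' deposited tables.

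BRCA1 (AT4G21070), a ubiquitin ligase that promotes recombination, differed most in salt among the members of this route. Its implied means were 52.2 in +WT and 249 in ΔDS imbibed seeds and 11.2 and 204 in salt. This was 4.77-fold and 18.1-fold higher in ΔDS, with 2.25 ± 0.21 (adjusted p = 2.80e-23) in imbibed seeds and 4.18 ± 0.33 (adjusted p = 3.03e-34) in salt in the authors' deposited tables. The +WT level was the lower one in salt, and the ΔDS level was similar in the 2 tables, which were normalised separately and so are only set side by side. BARD1 (AT1G04020), its partner in the ligase, had a mean of 71.9 normalised counts in imbibed seeds, 0 in dry seeds and 0.325 in salt. The genotype effect on BARD1 in imbibed seeds did not pass, at 0.91 ± 0.43 (adjusted p = 0.0794) in the authors' deposited table, and it had no test in the other states.

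GMI1 (AT5G24280) and XRI1 (AT5G48720) were first known as genes induced by ionising radiation in Arabidopsis. They were the most abundant of the raised recombination genes per length in imbibed and salt ΔDS seeds. GMI1 encodes a protein with an SMC hinge region that is needed for somatic recombination, and its implied means were 416 in +WT and 1803 in ΔDS imbibed seeds and 327 and 2710.1 in salt. The authors' deposited tables gave GMI1 2.12 ± 0.22 (adjusted p = 1.06e-18) in imbibed seeds and 3.05 ± 0.10 (adjusted p = 1.53e-188) in salt, and in salt its Wald statistic ranked 2 of 18518 genes in the direction of higher levels in ΔDS. XRI1, needed for repair in meiosis, stood at 498 in +WT and 1523 in ΔDS imbibed seeds and 640.1 and 2470.4 in salt. For XRI1 the authors' deposited tables gave 1.61 ± 0.19 (adjusted p = 3.70e-15) in imbibed seeds and 1.95 ± 0.086 (adjusted p = 3.25e-111) in salt, rank 4 in salt. In dry seeds the same gene stood at 659.7 in +WT and 646 in ΔDS, a log2 fold change of -0.03 ± 0.10 in the authors' deposited table. XRI1 thus had a dry level as high as its +WT imbibed level, unlike GMI1, which stood at 27.6 and 33.0 in dry seeds.

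RECQ4A (AT1G10930), a helicase that undoes crossover intermediates, changed less, with 0.46 ± 0.12 (adjusted p = 7.99e-04) in imbibed seeds and 0.31 ± 0.091 (adjusted p = 0.00885) in salt in the authors' deposited tables. RAD54 (AT3G19210), a motor protein that helps a broken strand pair with the intact copy, was higher in salt, with implied means of 368 and 676. The authors' deposited tables gave RAD54 0.41 ± 0.21 (adjusted p = 0.0967) in imbibed seeds and 0.88 ± 0.11 (adjusted p = 1.04e-13) in salt. The remaining recombination genes did not pass in any state. The recombination mediators XRCC2 and XRCC3 had log2 fold changes of -0.29 and 0.30 in imbibed seeds and of -0.31 and 0.41 in salt in the authors' deposited tables. MRE11, RAD50 and NBS1, the subunits of the complex that first binds a break, had -0.19, -0.16 and 0.33 in imbibed seeds and 0.23, -0.05 and 0.18 in salt in the authors' deposited tables. GR1, which works with that complex, was thus raised where the complex itself did not pass.

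**Figure D2:**
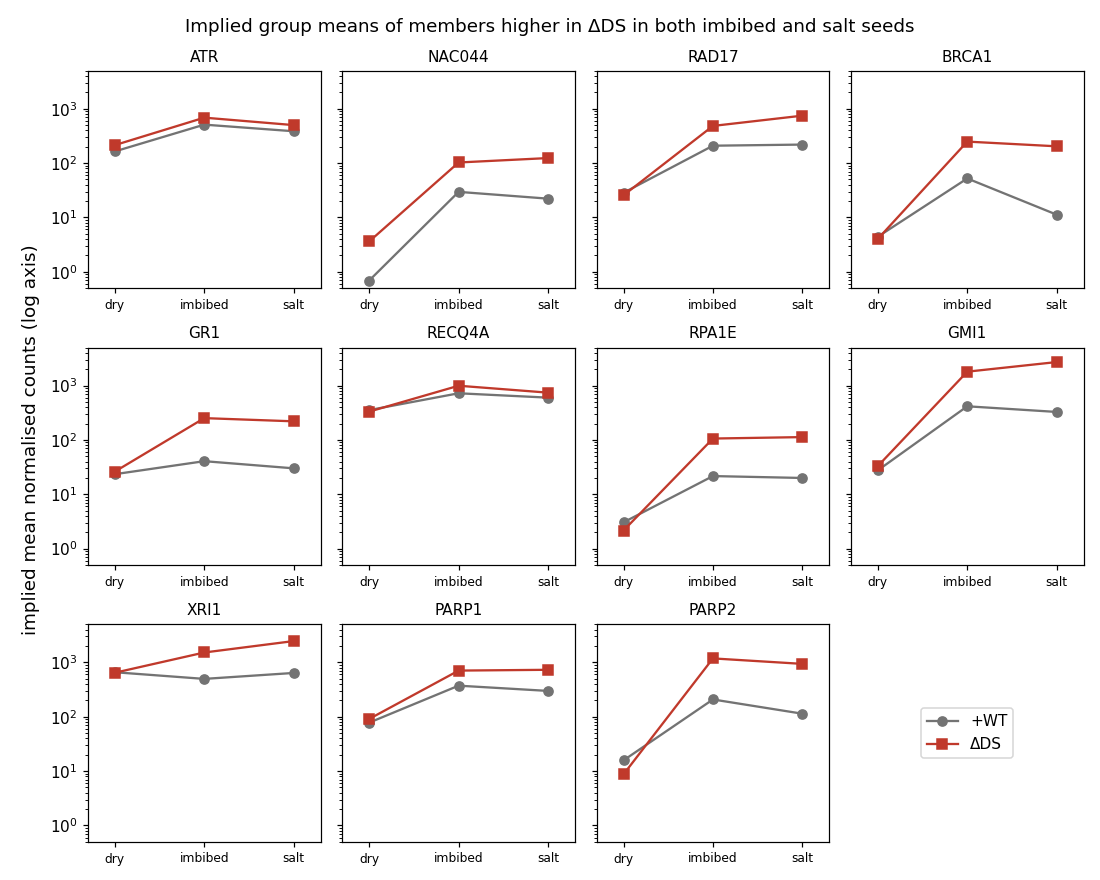
Implied group means of members that were higher in ΔDS in both imbibed and salt seeds. The vertical log axis gives implied mean normalised counts, the horizontal axis the seed state, grey circles +WT and red squares ΔDS; there are no error bars because the tables hold no values per library. The genotypes lie close together in dry seeds for most members and apart in imbibed and salt seeds, with the widest gap for BRCA1 in salt.

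The PARP family, whose products attach ADP-ribose chains at DNA breaks, split into 2 raised members and 1 lowered member. PARP2 (AT4G02390), the main such enzyme in the Arabidopsis damage response, had implied means of 208 in +WT and 1185 in ΔDS imbibed seeds and 114 and 940.0 in salt. It was 5.69-fold higher in imbibed seeds and 8.26-fold in salt, with 2.51 ± 0.12 (adjusted p = 5.23e-89) in imbibed seeds and 3.05 ± 0.14 (adjusted p = 1.91e-108) in salt in the authors' deposited tables. Its Wald statistic ranked 2 of 19430 genes in imbibed seeds and 5 of 18518 in salt. In dry seeds PARP2 stood at 15.8 in +WT and 8.73 in ΔDS and did not pass, at -0.85 ± 0.59 (adjusted p = 0.533) in the authors' deposited table. PARP1 (AT2G31320) stood at 373 in +WT and 707 in ΔDS imbibed seeds and 299 and 731 in salt, with 0.92 ± 0.14 (adjusted p = 1.31e-08) in imbibed seeds and 1.29 ± 0.13 (adjusted p = 1.29e-21) in salt in the authors' deposited tables.

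PARP3 (AT5G22470), the member of the family that is abundant in seeds, had by far the highest level of the 48 genes. In dry seeds it stood at 138437 implied normalised counts for +WT and 144661 for ΔDS, in imbibed seeds at 16543 and 7159, and in salt at 56518 and 48991. The dry effect did not pass, at 0.06 ± 0.059 (adjusted p = 0.686) in the authors' deposited table. PARP3 was lower in ΔDS in the other states, with -1.21 ± 0.26 (adjusted p = 3.83e-05) in imbibed seeds and -0.21 ± 0.047 (adjusted p = 2.17e-04) in salt in the authors' deposited tables, and the salt decrease did not pass when scaled to library totals (-0.05). The seed storage and late embryogenesis markers were lower in the same states, with medians over 7 genes of -1.40 in imbibed and -0.47 in salt seeds.

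No end joining gene passed as higher in any state. Of 6 members 0 were higher in dry seeds, 0 in imbibed seeds and 0 in salt (1, 0 and 0 at an unadjusted p under 0.05, DESeq2 Wald test), where 2.96%, 21.3% and 6.98% of all genes were. The one in dry seeds was LIG6, with 0.25 ± 0.090 (adjusted p = 0.0700) in the authors' deposited table, and all 6 estimates were above 0 there, from 0.04 (KU80) upward. In imbibed seeds 2 of the 6 were lower, beside 19.5% of all genes. Those were KU80 (AT1G48050), a subunit of the ring that holds broken ends, and LIG6 (AT1G66730), a plant DNA ligase linked to seed longevity. KU80 had -0.35 ± 0.12 (adjusted p = 0.00902) and LIG6 -0.64 ± 0.18 (adjusted p = 0.00168) in imbibed seeds in the authors' deposited table, from implied means of 2145 to 1375 for LIG6. KU80 did not pass when scaled to library totals (-0.16). Neither passed in salt, where the authors' deposited table gave -0.17 and -0.20. KU70, LIG4, XRCC4 and TEB, the last a polymerase that joins ends through short homologies, lay between -0.25 (LIG4) and 0.21 (XRCC4) in imbibed seeds and between -0.14 (KU70) and 0.19 (XRCC4) in salt in the authors' deposited tables. The median of the route was -0.20 in imbibed and -0.05 in salt seeds, and the second changed sign, to 0.11, when the tables were rescaled to equal library totals. The same median was 0.45 and 0.65 for recombination, 0.62 and 1.09 for signalling and 0.92 and 1.29 for the PARP genes. The signalling medians count WEE1, which in salt rests on a mean of only 2.81 normalised counts. With WEE1 counted, the salt median falls midway between SOG1 (0.42) and RAD17 (1.77), so it depends on that gene. These medians are descriptions of the genes listed, and their differences were not tested.

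Of 6 base excision genes 1 passed, as higher in imbibed seeds, where 21.3% of all genes tested were higher, so the count is no excess. This was UNG (AT3G18630), which removes uracil from DNA and went from 109 to 216 implied normalised counts. The authors' deposited tables gave it 0.99 ± 0.19 (adjusted p = 5.03e-06) in imbibed seeds and 0.53 ± 0.24 (adjusted p = 0.145) in salt. LIG1 (AT1G08130), the ligase of replication and of base excision, had 0.24 ± 0.11 (adjusted p = 0.0662) in imbibed seeds and 0.16 ± 0.081 (adjusted p = 0.185) in salt in the authors' deposited tables and passed in neither. OGG1 and FPG1, which remove oxidised guanine, XRCC1, a scaffold, and TDP1, which frees trapped topoisomerase from DNA ends, lay between -0.13 (TDP1) and 0.26 (OGG1) in imbibed seeds and between -0.15 (XRCC1) and 0.13 (OGG1) in salt in the authors' deposited tables.

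Mismatch repair held 5 members. MSH3 (AT4G25540), which takes part in the recognition of larger loops, was lower where it passed, with -0.56 ± 0.24 (adjusted p = 0.0446) in imbibed seeds and 0.17 ± 0.11 (adjusted p = 0.360) in salt in the authors' deposited tables. Its imbibed call was lost when the tables were adjusted over all genes with a p, scaled to library totals or freed of the length trend. MSH6, which takes part in the recognition of single mispairs, did not pass, at -0.32 ± 0.15 (adjusted p = 0.0656) in imbibed seeds and 0.02 in salt in the authors' deposited tables. PMS1, which acts after recognition, had -0.07 in imbibed seeds and -0.03 in salt and passed in neither in the authors' deposited tables.

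The translesion polymerases REV1 (AT5G44750) and POLH (AT5G44740), which copy past damaged bases, are transcribed away from each other on chromosome 5 with 711 bases between their starts. REV1 was lower after imbibition without salt, with -0.27 ± 0.093 (adjusted p = 0.0123) in imbibed seeds and -0.13 ± 0.092 (adjusted p = 0.407) in salt in the authors' deposited tables, and did not pass in either when scaled to library totals. POLH passed under salt, with 0.15 ± 0.19 (adjusted p = 0.557) in imbibed seeds and 0.49 ± 0.14 (adjusted p = 0.00468) in salt in the authors' deposited tables. Neither gene that acts on UV damage passed in dry, imbibed or salt seeds. UVH1, an endonuclease subunit of nucleotide excision repair, had 0.33, 0.16 and 0.07 in that order of states, and PHR1, a light-driven photolyase, had -0.38, 0.40 and 0.20 in the authors' deposited tables.

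Most of the raised genes had low levels per length before water uptake. Here a level per kilobase is the implied mean per kilobase of exon, scaled to the same total over all genes in each table, and the 3 tables are set side by side without a test. In dry +WT seeds the 13 genes had a median level per kilobase of 0.545, the other 35 members 6.29 and all genes above 0 3.15. In imbibed seeds the 13 genes had a median level per kilobase of 4.95 in +WT and 14.2 in ΔDS, and in salt of 2.44 and 11.7. The other 35 members had 10.2 and 12.5 in imbibed seeds and 8.54 and 10.1 in salt. The ΔDS median of the raised genes thus lay near that of the other members, and the +WT median below it. The 13 were chosen by their effect in these same tables, so this comparison describes them and tests nothing.

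The routes also differed in level per kilobase in +WT. In dry seeds the medians were 6.93 for end joining, 6.66 for translesion, 6.65 for mismatch, 5.39 for UV damage, 3.35 for base excision, 1.34 for recombination, 1.17 for the PARP genes and 0.661 for signalling. End joining genes ran there from 3.13 (TEB) to 8.95 (KU80), while recombination ran from 0 (BARD1) to 16.9 (RAD50). In imbibed +WT seeds the medians were 26.0 for translesion, 19.2 for end joining, 11.2 for base excision, 11.0 for mismatch, 6.68 for PARP, 5.71 for UV damage, 4.95 for recombination and 3.36 for signalling. In salt translesion (16.2) and end joining (13.5) again came first and recombination (3.48) and signalling (2.27) last.

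The member of highest level per kilobase in imbibed +WT seeds was ATM (17.2) in signalling, RAD50 (26.7) in recombination, LIG6 (27.8) in end joining, PARP3 (357) among PARP genes, LIG1 (37.1) in base excision, REV1 (46.5) among translesion genes and UVH1 (7.76) among UV damage genes. ATM, LIG6, PARP3 and REV1 of these were lower in ΔDS imbibed seeds, and none of the 7 was higher (DESeq2 adjusted p; 1, LIG1, at an unadjusted p under 0.05). In dry +WT seeds PARP3 had a level per kilobase of 2496, rank 68 of 21983 genes above 0, and the next member was RAD50 at 16.9.

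**Figure D3:**
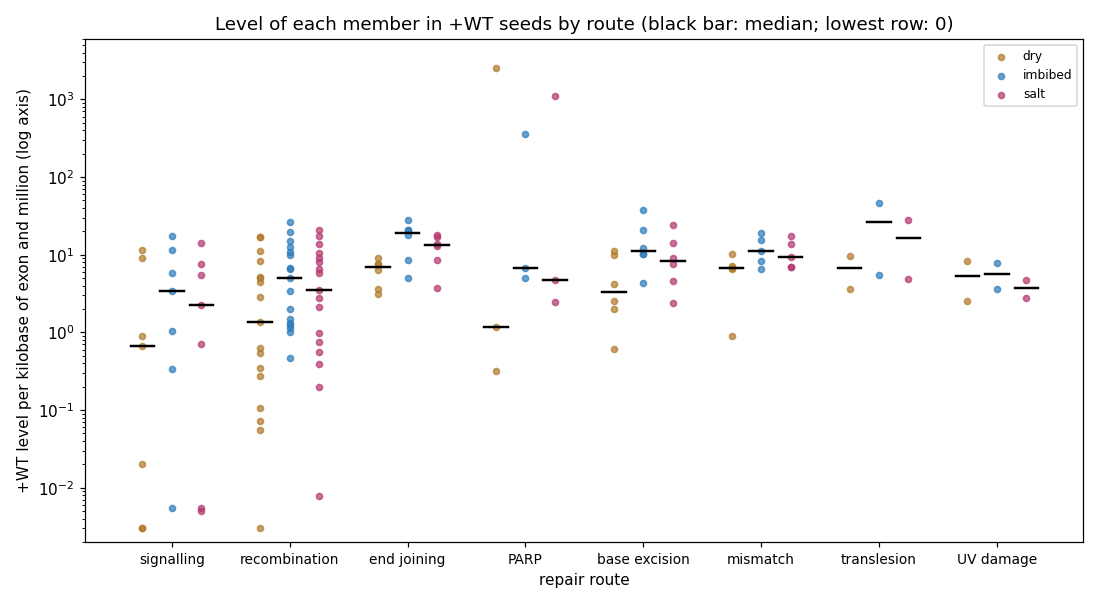
Level per kilobase of each member in +WT seeds by route and seed state. The vertical log axis is the implied mean per kilobase of exon scaled to the same total in each table, each point is 1 member, black bars are medians, and points on the lowest line are listed at 0. PARP3 stands above all other members in each state.

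Whether the genotype effect itself differed between states was tested for each gene by a z test of the difference of the log2 fold changes in the authors' deposited tables. From dry to imbibed seeds the effect moved upward for 9 of 41 members tested (22.0%) and downward for 5 (12.2%), while 8.49% and 16.5% of all genes moved so. From dry to salt it moved upward for 8 of 41 (19.5%) and downward for 3 (7.32%), beside 1.64% and 4.19% of all genes. PARP2 moved furthest, by 3.36 ± 0.61 on the log2 scale from dry to imbibed (adjusted p = 2.78e-06) and 3.90 ± 0.61 from dry to salt (adjusted p = 3.42e-08). XRI1 had the smallest adjusted p in each, at 1.64 ± 0.21 (adjusted p = 1.41e-11) and 1.98 ± 0.13 (adjusted p = 8.56e-47). RAD17, GR1, GMI1 and PARP1 were among the others that moved upward in both contrasts, RECQ4A and PHR1 moved upward from dry to imbibed, and RAD54 from dry to salt. ATM, LIG6 and PARP3 moved downward in both, and MSH6 and REV1 from dry to imbibed. BRCA1, NAC044 and RPA1E had too few reads in dry seeds for the authors' adjusted p and were not in these contrasts.

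The increase in ΔDS was larger in salt than in imbibed seeds for 3 of the raised members, BRCA1, GMI1 and PARP2, and the decrease of PARP3 was smaller. Of 46 members 4 moved upward from imbibed to salt seeds (8.70%, beside 5.85% of all genes) and 0 moved downward (3.31% of all genes; 0 members at an unadjusted p under 0.05 by the z test). BRCA1 moved by 1.93 ± 0.39 (adjusted p = 2.45e-04), GMI1 by 0.93 ± 0.24 (adjusted p = 0.00699) and PARP2 by 0.54 ± 0.18 (adjusted p = 0.0418). PARP3 moved by 1.00 ± 0.26 (adjusted p = 0.00692). The estimate was larger in salt than in imbibed seeds for 11 of the 13 raised genes, and 8 of these 11 did not pass the test of that difference. Among these NAC044 had 0.69 ± 0.45 (adjusted p = 0.345) and RAD17 0.56 ± 0.23 (adjusted p = 0.0980). RAD54, which was called in salt alone, had 0.47 ± 0.23 (adjusted p = 0.193) and did not pass this test either. PARP2 passed with a difference of similar size at an SE of 0.18. The SE of NAC044, RAD17 and RAD54 was wider, from 0.23 to 0.45, so a difference in these genes may have been missed.

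**Figure D4:**
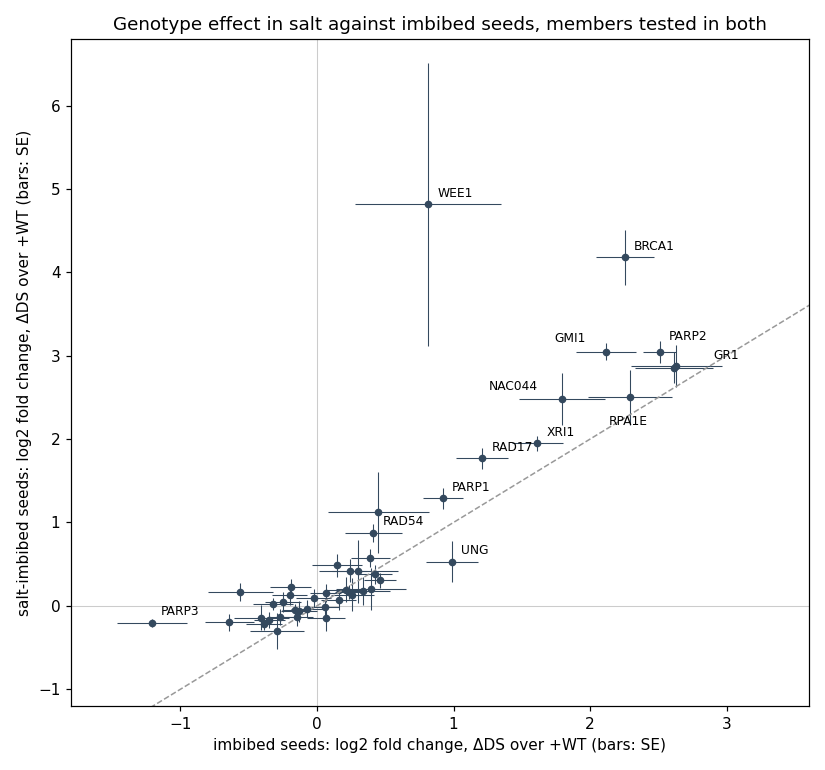
Genotype effect in salt (vertical axis) against that in imbibed seeds (horizontal axis), both as log2 fold changes of ΔDS over +WT, for the 46 members tested in both. Bars are SE and the dashed line marks equal effects; BRCA1 and GMI1 lie above the line, PARP3 lies left of 0, and WEE1 rests on very few reads.

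The palindrome of SOG1, which reads the same on both strands, was looked for in the 300 bases from 250 before to 50 after each gene start. It was found in 11.8% of all 27443 protein-coding genes, in 4 of the 13 raised genes (30.8%, Wilson 95% interval 12.7 to 57.6) and in 9 of the 48 members (18.8%, 10.2 to 31.9). The raised genes with it included NAC044, GR1 and PARP2. Of the 17 members higher in salt 5 had it, RAD54 among them, and of the other 31 members 4 had it, namely XRCC1, TEB, UVH1 and LIG4. The sites of NAC044, GR1, PARP2 and RAD54 and of TEB, which passed in no state, are shown with the outer bases in capitals, 5′ to 3′ on the strand of the gene, to let the spacers be compared.
NAC044: CTTggggagcAAG
GR1: CTTctcgggtAAG
PARP2: CTTttaatagAAG
RAD54: CTTttctgatAAG
TEB: CTTctaataaAAG

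The first base of the site lay 65 bases before the start in NAC044, 65 in GR1, 96 in PARP2, 21 in RAD54 and 59 in TEB, while those of XRCC1, UVH1 and LIG4 began after the start. In the 200 bases before the start alone 5 of the 17 genes higher in salt and 1 of the other 31 had a match, with 7.91% of all genes. In a wider window of 500 bases before to 50 after, chosen after seeing the data, 6 of the 17 and 9 of the 31 had one, with 20.02% of all genes. The E2F motifs TTTCCCGC and TTTGGCGC, searched on both strands and known from S phase genes, occurred in 0.798% and 0.434% of all genes, and each in 1 member. BRCA1 held TTTGGCGC and NAC085 held TTTCCCGC, and no member held more than 1 of the 3 motifs. The other 9 raised genes, among them GMI1, XRI1, BRCA1 and RAD17, held no palindrome in this window. A match describes these letters and does not show binding.

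**Figure D5:**
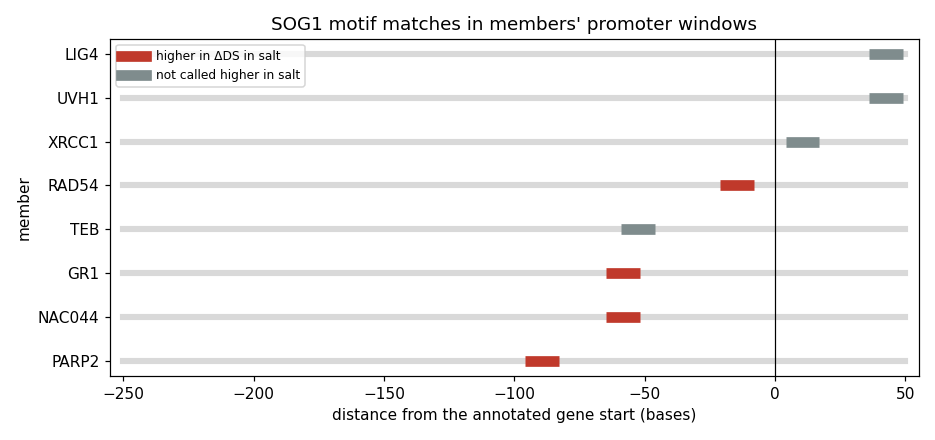
Places of the SOG1 palindrome around the gene start of members that hold one. The horizontal axis is the distance in bases from the gene start, each line is the 300-base window of 1 member, and red blocks mark members higher in ΔDS in salt and grey blocks the others; the sites of NAC044, GR1, PARP2, RAD54 and TEB lie within 100 bases before the start.

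Other known targets of SOG1 were also higher in imbibed and salt ΔDS seeds. Of 5 such genes 3 were higher in imbibed seeds and 4 in salt, beside 21.3% and 6.98% of all genes tested. TSO2 (AT3G27060), a small subunit of ribonucleotide reductase, which makes the building blocks of DNA, was 8.28-fold higher in imbibed seeds and 22.6-fold in salt in the authors' deposited tables, from implied means of 1037 to 8581 and of 506 to 11446. SMR7 (AT3G27630), an inhibitor of cyclin-dependent kinases, had log2 fold changes of 4.18 ± 0.32 and 5.29 ± 0.33 in the authors' deposited tables, from 16.02 to 289.6 and from 9.10 to 356 implied normalised counts. SMR5 (AT1G07500), of the same inhibitor family, was higher in salt (0.75 ± 0.070) and had -0.20 ± 0.58 in imbibed seeds in the authors' deposited tables. CYCB1;1 (AT4G37490), the mitotic cyclin that damage induces in Arabidopsis, had 2.45 ± 0.19 and 2.78 ± 0.20 in the authors' deposited tables. In dry seeds 0 of the 3 tested passed (0 at an unadjusted p under 0.05, DESeq2 Wald test).

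Genes of S phase were mostly higher too, and no gene of mitosis passed. Of 13 S phase genes 12 were higher in imbibed seeds, and 7 of 12 tested were higher in salt, with medians of 1.10 and 1.37. Of all genes tested 21.3% and 6.98% were higher in these states. RNR1 (AT2G21790), the large subunit of ribonucleotide reductase, had 0.96 ± 0.086 and 1.502 ± 0.064, and the helicase subunit gene MCM5 (AT2G07690) had 0.97 ± 0.13 and 0.43 ± 0.24, the second not past the test, in the authors' deposited tables. Of 6 mitotic genes tested in each of imbibed and salt seeds 0 were higher (0 at an unadjusted p under 0.05, DESeq2 Wald test), and the summed implied level of all 10 was 87.3 and 61.6 normalised counts in +WT and ΔDS imbibed seeds. These 10 genes were near the floor, with 4 of them under a mean of 1 normalised count in each of these states. Their highest mean was 28.5 in imbibed and 29.6 in salt seeds, against 204 and 221 for CYCB1;1. Changes in them could be missed at such levels, so no contrast with CYCB1;1 is read. Whether the raised repair genes move with the damage pathway or with entry into S phase was not tested.

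In a wider list of 41 other repair genes some were higher and some lower. In imbibed seeds this was at about the rate of all genes, so no excess is read there, and the salt counts are small. In imbibed seeds 8 were higher and 9 lower of 41 (9 and 13 at an unadjusted p under 0.05, DESeq2 Wald test), beside 21.3% and 19.5% of all genes, with a median of -0.08. In salt 5 were higher and 2 lower of 41 (8 and 3 at an unadjusted p under 0.05), beside 6.98% and 6.99% of all genes, with a median of 0.12. In dry seeds 0 of 38 passed, with 2 higher and 0 lower at an unadjusted p under 0.05 (DESeq2 Wald test). TOP3A (AT5G63920), a topoisomerase that works with RECQ4A, was higher in imbibed seeds (1.25 ± 0.22) and in salt (0.98 ± 0.25) in the authors' deposited tables. FANCD2 (AT4G14970), of crosslink repair, had 0.55 ± 0.15 and 1.06 ± 0.18 in the authors' deposited tables. XPB1 (AT5G41370), a helicase of nucleotide excision repair, was lower, with -0.88 ± 0.15 and -0.35 ± 0.065 in the authors' deposited tables.

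The 13 raised genes lie on all 5 chromosomes, with 1 on chromosome 1, 1 on chromosome 2, 3 on chromosome 3, 3 on chromosome 4 and 5 on chromosome 5. Exons of 12 members overlap those of another gene, over 0.269% to 9.0% of the member's exon length, and 4 of these are raised genes (ATR, RAD17, RECQ4A and GMI1, over 0.323% to 2.41%). No source used here says whether reads were counted by strand, so reads in these overlaps cannot be assigned. PARP2, BRCA1, GR1, NAC044, RPA1E and XRI1 have no such overlap.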

How the data were processed

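RNA-seq of whole seeds gave 18 libraries in 6 groups of 3. Per the submitters' processing notes HISAT2, DESeq2 and the build TAIR10 were used, with no versions. No source used here gives the counter, strandedness or annotation. The authors deposited, per the file headers, 1 DESeq2 result table for each seed state. Its first column, the mean normalised count (a coverage signal), was deposited by the authors, as were the log2 fold change with its error, the Wald score, the p-value and the adjusted p-value. Depth per library is unknown, so no interval from counts is given for expression. The Wilson intervals of motif shares cover counting error only.

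From these tables the calls were the authors' adjusted p under 0.05, since count models need values per library. Implied +WT and ΔDS means assume 3 libraries on each side. Differences between states were tested by a z test of the deposited log2 fold changes with an error from both SEs, Benjamini-Hochberg adjusted over all genes for which both tables hold an adjusted p. This test was tried on simulated data with known changes. The authors' DESeq2 filter left 41, 47 and 46 members with an adjusted p in dry, imbibed and salt seeds. Exon lengths, neighbours and promoters are from the RefSeq annotation of TAIR10.1, to which 32827 identifiers matched. Protein sequences were not used here.

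Alternatives were adjustment over all genes with a p, an adjusted p of 0.01, a fold of at least 1.5, a mean of at least 5 CPM of the table total, scaling to implied library totals, subtraction of the median gene or of a trend with exon length (lowess, span 0.3), levels without length, and other promoter windows. Members, gene lists and tests were chosen with earlier results of these data known. Named in full were members past the threshold in at least 2 tables or in a difference between states, the 3 largest increases and decreases per table with at least 20 implied counts, and the highest level per route. Of other lists the text draws on up to 2 genes of smallest adjusted p per table, and SMR5 was named after its values were seen. A few members are included in the counts and medians but are not reported one by one here. Calculations used pandas 2.3.3 and numpy 2.4.6 under Python 3.11.15, with scipy 1.17.1 and statsmodels 0.14.6 for tests and matplotlib 3.10.9 for figures.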

Additional observations from a re-analysis of the deposited data

Results flagged for a closer look

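The genotype effect of these members differed between seed states by the z test of the log2 fold changes in the authors' deposited tables, at an adjusted p under 0.05. Values are differences of log2 fold changes (ΔDS over +WT) with SE. From imbibed to salt seeds the effect was more positive for BRCA1 by 1.93 ± 0.39, PARP3 by 1.00 ± 0.26, GMI1 by 0.93 ± 0.24 and PARP2 by 0.54 ± 0.18. From dry to imbibed seeds the effect was more positive for PARP2 by 3.36 ± 0.61, GR1 by 2.47 ± 0.59, GMI1 by 1.86 ± 0.46, XRI1 by 1.64 ± 0.21, RAD17 by 1.36 ± 0.48, PHR1 by 0.77 ± 0.29, PARP1 by 0.69 ± 0.27 and RECQ4A by 0.55 ± 0.17. It was more negative for PARP3 by -1.27 ± 0.26, LIG6 by -0.89 ± 0.20, ATM by -0.60 ± 0.16, MSH6 by -0.58 ± 0.18 and REV1 by -0.33 ± 0.13. From dry to salt seeds the effect was more positive for PARP2 by 3.90 ± 0.61, GMI1 by 2.79 ± 0.42, GR1 by 2.71 ± 0.55, XRI1 by 1.98 ± 0.13, RAD17 by 1.92 ± 0.45, PARP1 by 1.06 ± 0.26 and RAD54 by 0.90 ± 0.14. It was more negative for LIG6 by -0.45 ± 0.14, ATM by -0.43 ± 0.13 and PARP3 by -0.27 ± 0.075. The adjusted p of these differences ran from 8.56e-47 to 0.0487. The dry, imbibed and salt comparisons share no samples, but the same dry table enters both contrasts with dry seeds.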

How the results depend on the processing

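The 13 members higher in both imbibed and salt seeds all passed in both under adjustment over all genes with a p. They also did so when the tables were scaled to implied library totals, centred on the median gene or freed of the length trend. In each state 12 of the 13 passed at an adjusted p of 0.01, and 10 with a fold of at least 1.5. With a mean of at least 5 CPM 11 were left and passed in imbibed seeds and 9 in salt. Of the 39 calls of single members, 38, 39 and 36 held under adjustment over all genes, median centring and removal of the length trend, while 32 held at an adjusted p of 0.01, 25 with a fold of at least 1.5 and 32 of the 32 left with a mean of at least 5 CPM. No call changed sign under these settings. Scaling to library totals, whose log2 ratio of ΔDS to +WT was -0.08 (dry), -0.19 (imbibed) and -0.16 (salt), moves every gene up by the size of that ratio and kept 33 calls. It raised the share of higher calls over all genes to 82.9%, 77.2% and 89.8%, from 48.9%, 52.1% and 49.96% as deposited. Under it 3 members were higher in dry seeds, 23 higher and 2 lower in imbibed seeds and 0 lower in salt, and 0 effects moved downward from dry to salt. Route medians then were -0.013 for end joining, 1.11 for PARP, 0.34 for base excision, 0.11 for mismatch and 0.12 for translesion genes in imbibed seeds, and 0.11, 1.45, 0.18 for end joining, PARP and mismatch genes and 0.33 for translesion genes in salt. Under this scaling decreases were lost and increases were gained. An adjusted p of 0.01 left 1 member lower in salt, 5 upward from dry to imbibed and 0 downward from dry to salt. A fold of at least 1.5 left 2 lower in imbibed seeds, 0 lower in salt, 3 downward from dry to imbibed and 0 from dry to salt. Removal of the length trend left 1 lower in salt, 2 downward from dry to imbibed and 1 from dry to salt. With a mean of at least 5 CPM, which leaves out low members, 3 moved upward and 9 downward from dry to imbibed and 2 upward from dry to salt. Median centring gave 8 downward from dry to imbibed. A fold of at least 1.5 removed the calls of ATR and RECQ4A in both states. Without division by length end joining ranked 3 and mismatch 1 among the 8 routes by dry +WT level. In the 200 bases before the start TTTGGCGC was found in 0 members.

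No paired analysis was possible because the tables hold no values per library; for the same reason leaving out each replicate could not be run. The direction of all fold changes rests on the order of names in the titles. Depth per library is unknown, so members near 0 (NAC085, WEE1, BARD1 in dry and salt seeds) cannot be graded. The cause of each shift above was not tested.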
